A study of Homo sapiens with 6 samples.

Results

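Focal adhesion and actomyosin genes encode the proteins that anchor actin filaments to integrins at the cell membrane and the motor that pulls on them. The 37 genes described here were taken from a list of tensins, talins, vinculin, LIM-domain scaffolds, adhesion kinases, actin crosslinkers, nonmuscle myosin II chains, actins, tropomyosins, calponins and a formin, with integrins left out. All 37 are among the 58735 gene IDs of the count table and among the 14370 genes tested. The cells were HCT116, an established human colorectal carcinoma line, transduced with an empty lentiviral vector (3 libraries, genotype given as WT) or with SETD8 for overexpression (3 libraries). SETD8 is an enzyme that methylates lysine in histones and other proteins, and its gene is listed as KMT5A. The treatment label mentions stable clones under puromycin selection, whereas the design text speaks of transfected cells, and whether a group is a single clone is not given. RNA was poly(A)-selected and sequenced, and the title of the series concerns methylation and degradation of the coactivator YAP.

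As background, integrins bind the matrix outside the cell and talin inside it. Talin recruits vinculin, and tensins, filamins and alpha-actinins add further links to actin filaments. Myosin II, built from heavy chains and light chains, contracts these filaments, and the kinases FAK and SRC signal from the same sites. Actin tension of this kind is a known input to YAP, and several adhesion genes are known targets of YAP, which acts through TEAD factors on DNA, or of the actin-regulated factor SRF.

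Total counts ran from 17056672 to 20471843 per library. KMT5A was higher in the SETD8 libraries (65.4, 66.2 and 75.5 CPM, the TMM-scaled counts relative to library size) than in the vector libraries (46.0, 47.3 and 53.9 CPM), by 0.49 on the log2 scale (SE 0.10, adjusted p = 0.0156 in edgeR). KMT5A did not pass when vector replicate 2 (adjusted p = 0.0965 in edgeR) or any 1 SETD8 library was dropped (adjusted p = 0.0661, 0.0579 and 0.0949 in edgeR). On the first principal component of all genes vector replicate 1 stood at -0.94, between vector replicates 2 and 3 (25.7 and 39.3) and the SETD8 libraries (-23.8 to -16.5). Whether the replicates are separate cultures is not stated, and the p-values cover only the spread among these 6 libraries, which may be technical. Epithelial markers were present, with EPCAM at 249 to 275 CPM and KRT8 at 5652 to 7316 CPM, while VIL1, CDX1, CEACAM5 and LGALS4 were at or near 0. The summed level of the 11 epithelial markers was 10774 to 13288 CPM in vector and 11264 to 12720 CPM in SETD8 libraries. CDH1, named after its value was seen, was the 1 of 7 tested epithelial markers that fell (-0.54, adjusted p = 0.0218 in edgeR), and it did not pass without vector replicate 2 or 3 (adjusted p = 0.138 and 0.0522 in edgeR) or without SETD8 replicate 1, 2 or 3 (0.119, 0.0690 and 0.107). Marker sums of other cell types were small: 4.85 to 7.32 CPM in vector and 3.50 to 4.83 in SETD8 libraries for 9 fibroblast genes, 1.30 to 2.54 and 1.11 to 1.85 for 5 endothelial genes, and 7.52 to 11.9 and 4.48 to 7.14 for 6 immune genes. In each of these 3 lists 1 gene was tested, and HLA-DRA fell (-0.76, adjusted p = 0.0456 in edgeR). HLA-DRA did not pass with library totals (adjusted p = 0.0515 in edgeR), in limma-voom (adjusted p = 0.0530), without vector replicate 2 (adjusted p = 0.222 in edgeR) or without SETD8 replicate 1, 2 or 3 (adjusted p = 0.148, 0.0757 and 0.182 in edgeR). COL1A2, DCN, PDGFRA, FAP, KDR, PTPRC and CD3E had 0 counts in every library. The part of these markers in the results was not tested.

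Across the 37 genes, 4 fell with SETD8 and 0 rose: the tensin TNS4, vinculin (VCL), the LIM scaffold PDLIM7 and the second talin, TLN2 (edgeR quasi-likelihood test, adjusted p under 0.05 over all 14370 genes). Of all genes tested, 4.75% were called lower and 3.08% higher (7.83% in either direction), against 10.8% and 0 of the members. The members had a median level of 190 CPM, beside 20.2 CPM over all genes. Their median SD over mean among vector libraries was 8.16%, beside 12.9%. The shares here are not matched for level or spread, and the part of these differences was not tested. The members were also chosen with earlier results of these data known, so the comparison with all genes is not independent of them. At an unadjusted p under 0.05 in edgeR, 17 members were lower (45.9%) and 2 higher (5.41%), beside 13.8% and 12.3% of all genes. DESeq2 called 12 members lower and 1 higher, where it called 907 of all genes lower (6.31%) and 739 higher. In limma-voom 4 members were lower and 0 higher, with 630 of all genes lower (4.38%) and 475 higher. The median log2 fold change of the members was -0.20, beside 0.00 over all genes, and 29 of 37 had a log2 fold change below 0, beside 50.0% of all genes. The groups did not overlap in 22 members. The SETD8 libraries were all lower in 20 of these and all higher in 2, where 15.9% and 14.4% of all genes showed this (30.3% in either direction). These are bulk measurements, so fewer cells with a transcript and less transcript per cell cannot be told apart.

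**Figure D1:**
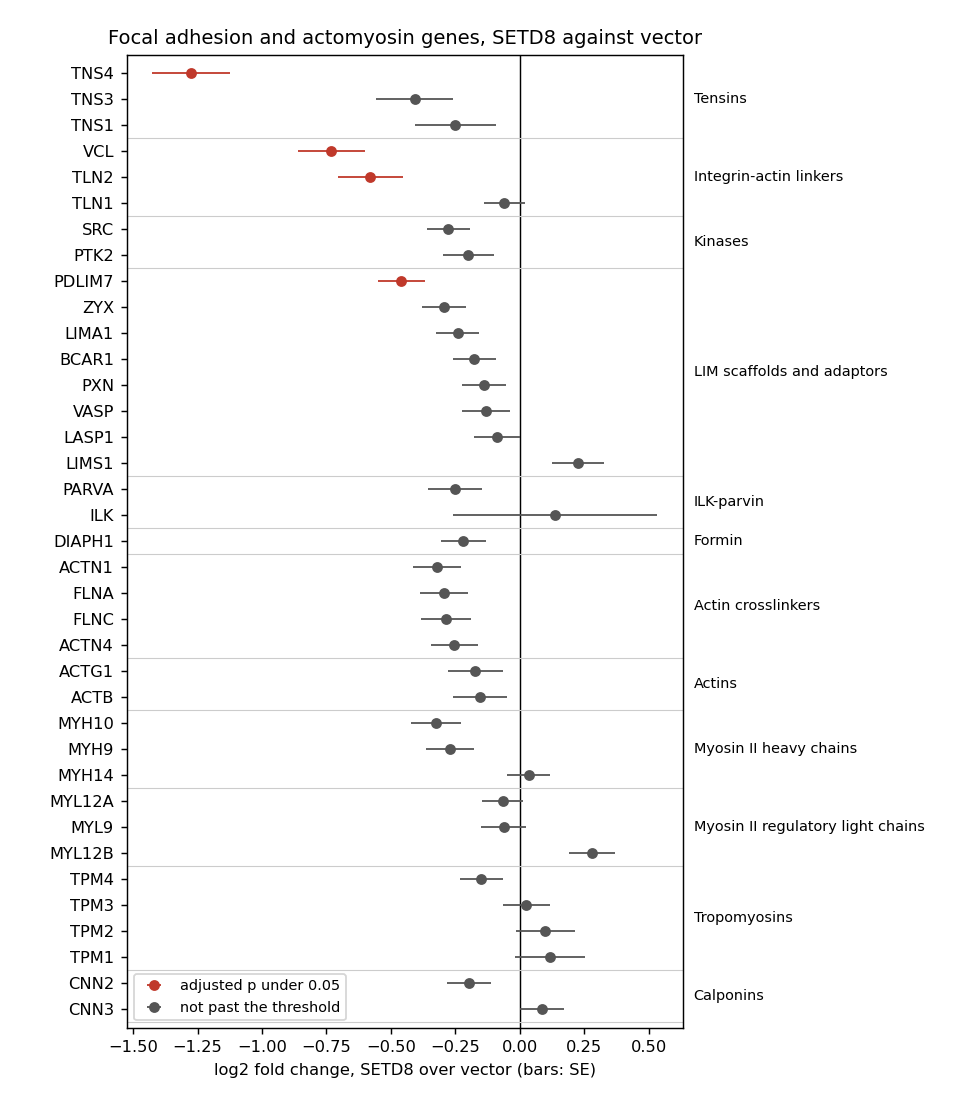
Log2 fold change of each of the 37 genes, SETD8 over vector, with its SE as a bar, grouped by role. The 4 genes with adjusted p under 0.05 (TNS4, VCL, PDLIM7 and TLN2) lie on the left, and 29 of 37 points lie below 0.

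The number of called members depended on single libraries. Leaving out vector replicate 1 gave 17 lower members and 1 higher (MYL12B), while 11.8% of all genes were then lower and 1771 of 14715 higher. Dropping vector replicate 2 left 1 lower member, with 0.320% of all genes lower, and dropping vector replicate 3 gave 9, with 4.38%. Of the SETD8 libraries, dropping replicate 1, 2 or 3 left 1, 1 and 2 lower members, with 0.0679%, 0.749% and 0.568% of all genes lower. TNS4 was called in each of these fits and in all 16 alternatives. At the other end, 18 of the 37 genes were called in none of the 16 alternatives.

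The promoters of members were searched for letters of the factors named in the background, in the 250 bases before the RefSeq start (GRCh38.p14, both strands). Of the 37 genes, 31 are in the promoter table. The others are ACTB, MYL9, PARVA, PTK2, SRC and TNS4. The CArG box, the binding motif of SRF, was found in 4 of 31 members (12.9%), beside 0.929% of the 10652 tested genes with a promoter. The 4 were FLNA, ACTG1, CNN2 and TPM4. In each of these genes the SETD8 libraries were all below the vector libraries, and none passed the test with the settings as reported. The same separation was seen in 20 of the 37 members and in 15.9% of all genes. Of the 510 genes called lower that have a promoter in the table, 2.16% held a CArG box. A relation between motif and fall was not tested. The core letters of the TEAD motif, CATTCC or its reverse complement GGAATG, were found in 4 of 31 members (12.9%: VCL, FLNC, MYH10 and MYH9). They were found in 9.17% of tested genes and 8.63% of the 510 genes called lower. No member's window held both motifs. The windows of the CArG box genes and of VCL, the called gene with a match, are shown 5′ to 3′ on the gene's strand, with the matched letters in capitals.
FLNA: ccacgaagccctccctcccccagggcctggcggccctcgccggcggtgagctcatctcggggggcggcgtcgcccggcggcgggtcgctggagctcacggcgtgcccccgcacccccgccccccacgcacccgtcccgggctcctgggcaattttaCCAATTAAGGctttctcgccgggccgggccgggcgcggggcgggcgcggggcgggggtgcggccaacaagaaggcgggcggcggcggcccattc
ACTG1: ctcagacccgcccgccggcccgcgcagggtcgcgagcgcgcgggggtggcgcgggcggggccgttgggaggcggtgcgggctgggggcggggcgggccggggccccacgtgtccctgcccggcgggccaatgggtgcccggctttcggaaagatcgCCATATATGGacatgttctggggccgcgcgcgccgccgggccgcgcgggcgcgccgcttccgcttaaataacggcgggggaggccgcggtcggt
CNN2: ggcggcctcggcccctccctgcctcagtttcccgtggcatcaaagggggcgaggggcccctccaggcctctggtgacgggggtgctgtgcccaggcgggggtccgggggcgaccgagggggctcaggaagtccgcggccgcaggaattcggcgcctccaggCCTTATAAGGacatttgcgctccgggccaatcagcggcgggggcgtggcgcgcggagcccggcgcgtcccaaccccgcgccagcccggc
TPM4: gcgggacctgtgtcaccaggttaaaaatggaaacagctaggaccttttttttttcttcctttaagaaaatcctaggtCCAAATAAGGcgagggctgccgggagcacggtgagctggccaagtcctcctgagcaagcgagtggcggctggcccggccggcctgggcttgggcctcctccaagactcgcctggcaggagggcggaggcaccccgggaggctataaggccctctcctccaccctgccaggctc
VCL: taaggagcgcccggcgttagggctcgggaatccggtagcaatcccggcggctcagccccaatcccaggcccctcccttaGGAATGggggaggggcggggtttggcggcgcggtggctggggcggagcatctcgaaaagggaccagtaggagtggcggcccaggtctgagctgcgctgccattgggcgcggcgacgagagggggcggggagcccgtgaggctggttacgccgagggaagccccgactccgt
These windows lie at chrX:154374635-154374884 (minus strand), chr17:81512800-81513049 (minus), chr19:1026358-1026607 (plus), chr19:16067288-16067537 (plus) and chr10:73997866-73998115 (plus). The CArG box begins 94 bases before the start of FLNA, 94 before ACTG1, 89 before CNN2 and 173 before TPM4, and GGAATG begins 171 bases before the start of VCL. The VCL window lies inside the VCL span given below, since the RefSeq start differs from the outermost GENCODE start. A match describes the letters and is not evidence of binding.

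Tensins link the tails of integrins to actin. TNS4, a short tensin without the actin-binding part of the other members, is on chromosome 17 (40475828 to 40501597 of GRCh38, minus strand, ENSG00000131746). It stood at 101, 152 and 163 CPM in vector replicates 1, 2 and 3 and at 52.5, 57.0 and 62.8 CPM in SETD8 replicates 1, 2 and 3. The lowest vector library, replicate 1, was still above the highest SETD8 library. TNS4 was 2.42-fold lower with SETD8 (means 139 ± 33.1 and 57.4 ± 5.12 CPM, SD of 3 libraries per group; log2 fold change -1.27, SE 0.15, adjusted p = 0.00318 in edgeR). Over the 16 alternatives its log2 fold change lay between -1.46 and -1.14, and its adjusted p reached 0.0401 at most.

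The other tensins among the members, TNS1 and TNS3, were scarce and did not pass the test. TNS2, a tensin outside the members, was called lower and is described with the other adhesion genes below. TNS3 had 14.3, 20.2 and 21.1 CPM in vector and 14.1, 14.2 and 13.6 CPM in SETD8 replicates 1, 2 and 3. Vector replicate 1 was thus next to the SETD8 values and the other vector libraries well above them (log2 fold change -0.41, 95% interval -0.83 to 0.01, adjusted p = 0.109 in edgeR). TNS3 passed without vector replicate 1 and was at -0.27 with length correction (adjusted p = 0.210 in edgeR). TNS1 had 14.2 ± 1.84 and 12.0 ± 2.12 CPM with overlapping groups (log2 fold change -0.25, interval -0.69 to 0.19, adjusted p = 0.334 in edgeR). Per length, in CPM per kb of annotated exons, TNS4 was 17.3, 18.4 and 18.9 times the TNS3 level in the vector libraries and 9.08, 9.78 and 11.3 times it in the SETD8 libraries. A ratio within a library does not depend on the scaling between libraries, and these ranges did not overlap.

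Talins and vinculin form the direct bridge from integrin to actin. VCL, which binds stretched talin and strengthens the bridge, lies on chromosome 10 (73995193 to 74121363, plus strand, ENSG00000035403). Its level was 226, 326 and 342 CPM in vector replicates 1, 2 and 3 and 173, 173 and 191 CPM in SETD8 replicates 1, 2 and 3. The SETD8 libraries were close together and all below the vector libraries, with vector replicate 1 the nearest to them. VCL was 1.66-fold lower with SETD8 (means 298 ± 62.8 and 179 ± 10.4 CPM; log2 fold change -0.73, SE 0.13, adjusted p = 0.00861 in edgeR). Dropping vector replicate 2 ended the call (adjusted p = 0.0741 in edgeR), as did dropping SETD8 replicate 1 or 2 (adjusted p = 0.0663 and 0.0571 in edgeR). Exons of VCL share 1109 of 9992 bases with exons of AP3M1 on the other strand, and AP3M1 had 64.7 ± 2.78 and 66.3 ± 5.69 CPM.

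TLN2 is on chromosome 15 (62390526 to 62844631, plus strand, ENSG00000171914). It had 21.6, 25.5 and 28.2 CPM in vector and 16.7, 16.1 and 17.6 CPM in SETD8 replicates 1, 2 and 3, so the groups were apart. Its log2 fold change was -0.58 (SE 0.13, adjusted p = 0.0188 in edgeR), a 1.49-fold difference. TLN2 did not pass with vector replicate 2 left out (adjusted p = 0.108 in edgeR), nor with SETD8 replicate 1, 2 or 3 left out (adjusted p = 0.0963, 0.0861 and 0.0791 in edgeR). With the correction for transcript length its log2 fold change was -0.38 and still passed. TLN1, the main talin of most cells, stood at 309, 324 and 309 CPM in vector and 309, 288 and 307 CPM in SETD8 libraries. The TLN1 ranges met, with a log2 fold change of -0.06 (interval -0.28 to 0.16, adjusted p = 0.672 in edgeR). The length correction turned its sign, to 0.0905 (adjusted p = 0.521 in edgeR). Per length, TLN2 was at 0.043, 0.049 and 0.057 of the TLN1 level in vector and 0.034, 0.035 and 0.036 of it in SETD8 libraries, without overlap.

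LIM-domain proteins and adaptors gather on the talin and actin layers of the adhesion, and 1 of 8 fell. PDLIM7, a scaffold with PDZ and LIM domains found on actin filaments, lies on chromosome 5 (177483394 to 177497606, minus strand, ENSG00000196923). PDLIM7 stood at 189, 222 and 207 CPM in vector and at 162, 140.4 and 148 CPM in SETD8 replicates 1, 2 and 3, and the groups did not overlap. The difference was 1.37-fold (means 206 ± 16.6 and 150.0 ± 10.9 CPM; log2 fold change -0.46, SE 0.09, adjusted p = 0.0142 in edgeR). It was not called without vector replicate 2 (adjusted p = 0.106 in edgeR) or without SETD8 replicate 1, 2 or 3 (adjusted p = 0.0565, 0.0770 and 0.0841 in edgeR).

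ZYX encodes zyxin, a tension-sensitive scaffold that recruits VASP. It had 232, 276 and 254 CPM in vector and 207, 209.6 and 206 CPM in SETD8 libraries. The groups were apart, and the test narrowly missed (log2 fold change -0.29, SE 0.09, adjusted p = 0.0533 in edgeR). ZYX passed in 6 of 16 alternatives, among them DESeq2 and the fits without vector replicate 1 or 3. Its exons share 82 bases with EPHA1 on the other strand, which stood at 27.9 ± 1.23 and 18.2 ± 1.02 CPM. LIMA1, an actin bundling protein also called EPLIN, had 212, 222 and 240.2 CPM in vector and 190.0, 186 and 194 CPM in SETD8 libraries, again without overlap (log2 fold change -0.24, SE 0.08, adjusted p = 0.0862 in edgeR). LIMA1 passed without vector replicate 1 and with GC correction.

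The remaining LIM scaffolds and adaptors, PXN, BCAR1, VASP, LASP1 and LIMS1, did not pass in any of the 16 alternatives. Paxillin (PXN, log2 fold change -0.14) and the SRC substrate BCAR1 (-0.18) were lower in every SETD8 library than in every vector library. The actin polymerase VASP (-0.13) and LASP1 (-0.09), a LIM and SH3 protein, had overlapping groups. LIMS1, which encodes PINCH1, had 43.0, 40.4 and 47.1 CPM in vector and 48.4, 55.4 and 48.7 CPM in SETD8 libraries, so its SETD8 values were all higher (log2 fold change 0.23, SE 0.10, adjusted p = 0.178 in edgeR). LIMS1 has near-identical copies in the genome, so its value is uncertain. Parvin alpha (PARVA), which binds actin in the complex with PINCH1 and ILK, had a log2 fold change of -0.25 (adjusted p = 0.144 in edgeR) and passed without vector replicate 1. ILK was listed with only 13 to 41 counts per library, and 68.1% of its exonic bases are also exons of TAF10 on the other strand, so its level could not be read.

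The adhesion kinases did not pass. SRC stood at 105, 115 and 111 CPM in vector and at 89.1, 91.8 and 91.8 CPM in SETD8 replicates 1, 2 and 3. The groups did not overlap (log2 fold change -0.28, SE 0.08, adjusted p = 0.0540 in edgeR), and SRC passed in 5 of 16 alternatives, including DESeq2 and the fits without vector replicate 1 or 3. PTK2, the gene of FAK, had 104, 127 and 134 CPM in vector and 106, 103 and 108 CPM in SETD8 libraries. Vector replicate 1 lay inside the SETD8 range and the other vector libraries above it (log2 fold change -0.20, interval -0.47 to 0.07, adjusted p = 0.217 in edgeR), and PTK2 passed without vector replicate 1.

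**Figure D2:**
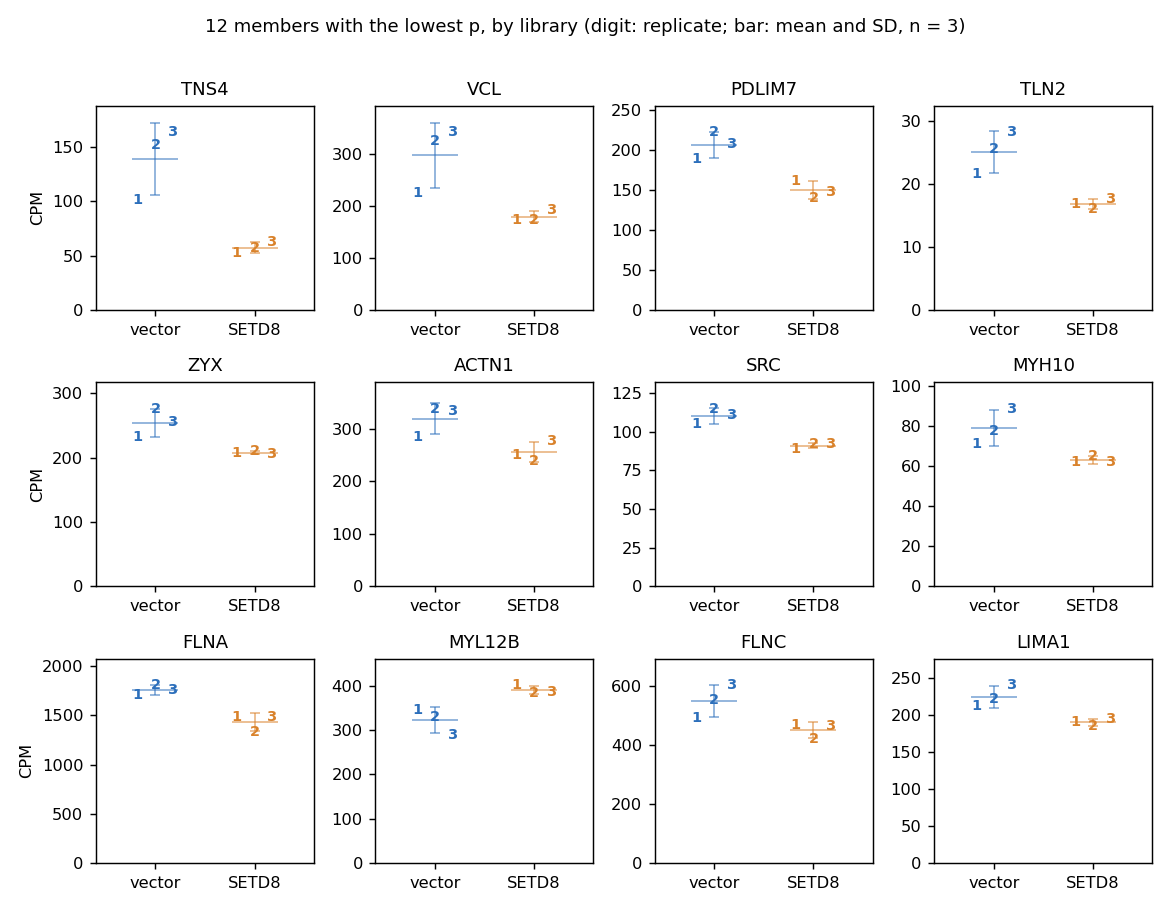
CPM by library for the 12 members with the lowest p; digits mark the replicates and bars the mean and SD (n = 3), on axes from 0. In TNS4, VCL and TLN2 vector replicate 1 is the lowest vector library, and the SETD8 libraries lie close together below it.

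All 4 actin crosslinkers were lower in every SETD8 library than in every vector library, and none passed the test in edgeR with the main settings. Filamin A (FLNA), which joins actin filaments at wide angles and binds integrin tails and whose promoter holds the CArG box shown above, had 1707, 1806 and 1754 CPM in vector and 1484, 1327 and 1482 CPM in SETD8 libraries. Its log2 fold change was -0.29 (SE 0.09, adjusted p = 0.0660 in edgeR). FLNC, the filamin best known from muscle, stood at 491, 554 and 603 CPM against 469, 419 and 463 CPM (-0.29, SE 0.10, adjusted p = 0.0840 in edgeR). ACTN1, an alpha-actinin of stress fibres, had 285, 338 and 334 CPM in vector and 250.4, 239.7 and 276 CPM in SETD8 libraries (-0.32, SE 0.09, adjusted p = 0.0533 in edgeR). ACTN4, the more abundant alpha-actinin, had 1367, 1479 and 1403 against 1213, 1125 and 1226 CPM (-0.25, SE 0.09, adjusted p = 0.0967 in edgeR). In DESeq2 and without vector replicate 1 all 4 were called lower. With length correction FLNA and FLNC moved to -0.15 and -0.12 (adjusted p = 0.294 and 0.340 in edgeR), while ACTN1 passed at -0.27 (adjusted p = 0.0491 in edgeR). Per length, ACTN1 was at 0.12 to 0.14 of ACTN4 in vector and 0.12 to 0.13 in SETD8 libraries, and FLNC at 0.33 to 0.39 and 0.36 of FLNA, so neither ratio separated the groups.

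The actins were the most abundant members. ACTG1, with the CArG box shown above, had 6648, 7515 and 6518 CPM in vector and 6271, 5689.8 and 6395 CPM in SETD8 libraries. The lowest vector and highest SETD8 values were close (log2 fold change -0.17, interval -0.47 to 0.13, adjusted p = 0.330 in edgeR). ACTB had 3462, 3822 and 3256 CPM in vector and 3084, 2933 and 3453 CPM in SETD8 libraries, with overlapping groups (-0.15, interval -0.45 to 0.14, adjusted p = 0.380 in edgeR). Neither was called in any alternative, and length correction gave -0.26 for ACTG1 and -0.25 for ACTB (adjusted p = 0.0727 and 0.0881 in edgeR). Per length ACTG1 was 2.26 to 2.35 times ACTB in vector and 2.18 to 2.39 times in SETD8 libraries. Actin genes have many processed pseudogenes, and those of ACTB and ACTG1 held counts equal to 0.0701% and 0.00926% of their parents. Reads shared between ACTB and ACTG1 themselves could not be examined in a count table.

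The 3 nonmuscle myosin II heavy chains form motors of different speed and duration of force, and none passed the test. MYH9, the chain of myosin IIA and the main paralog here, had 1562, 1649.9 and 1674 CPM in vector and 1374, 1256 and 1422 CPM in SETD8 libraries. The groups did not overlap (log2 fold change -0.27, SE 0.09, adjusted p = 0.0883 in edgeR). MYH10, of myosin IIB, had 70.9, 77.3 and 88.6 against 61.9, 65.3 and 61.8 CPM, also without overlap (-0.32, SE 0.10, adjusted p = 0.0586 in edgeR). Both passed in DESeq2 and without vector replicate 1, and length correction moved them to -0.14 and -0.19 (adjusted p = 0.2995 and 0.145 in edgeR). MYH14, of myosin IIC, had 181, 171 and 168 against 179, 188 and 166 CPM, with overlap (0.03, interval -0.20 to 0.26, adjusted p = 0.832 in edgeR). Per length, MYH14 was at 0.101, 0.090 and 0.087 of MYH9 in vector and 0.113, 0.130 and 0.101 of it in SETD8 replicates 1, 2 and 3. Vector replicate 1 and SETD8 replicate 3 nearly met. MYH10 stayed at 0.045 to 0.053 of MYH9 in vector and 0.043 to 0.052 in SETD8 libraries.

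Regulatory light chains switch the motor on when phosphorylated, and none of the 3 passed. MYL12B had 346, 330.2 and 289 CPM in vector and 401, 384 and 387 CPM in SETD8 replicates 1, 2 and 3. Each SETD8 library was above each vector library (log2 fold change 0.28, SE 0.09, adjusted p = 0.0693 in edgeR), and MYL12B passed as higher in 5 of 16 alternatives: library totals, no low-count filter, DESeq2, GC correction and without vector replicate 1. With length correction its log2 fold change was 0.09 (adjusted p = 0.453 in edgeR). Its close paralog MYL12A had 163 ± 6.67 and 155 ± 3.12 CPM (-0.07, interval -0.29 to 0.15, adjusted p = 0.630 in edgeR). Per length, MYL12B was 3.08 to 3.64 times MYL12A in vector and 4.07 to 4.43 times in SETD8 libraries, without overlap. MYL9, the light chain known from smooth muscle and stress fibres, had 99.8, 101 and 86.8 against 91.4, 91.1 and 93.1 CPM (-0.06, interval -0.31 to 0.18, adjusted p = 0.686 in edgeR). MYL12A and MYL12B are near-identical in coding sequence, so the split of reads between them is uncertain.

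Tropomyosins wrap actin filaments and calponins bind them, and none of these 6 genes passed. TPM2, the highest tropomyosin per length, had 368, 336 and 265 CPM in vector and 345, 318 and 374 CPM in SETD8 libraries (log2 fold change 0.10, adjusted p = 0.620 in edgeR). TPM3 (0.03) and the scarce TPM1 (0.12) overlapped as well. TPM4 had 524, 534 and 519 against 470.2, 453 and 499 CPM, all lower with SETD8 (-0.15, interval -0.38 to 0.08, adjusted p = 0.270 in edgeR). CNN2 stood at 195, 220.1 and 194 CPM in vector and 175, 169 and 186 CPM in SETD8 libraries (-0.20, SE 0.09, adjusted p = 0.164 in edgeR). It was called with length correction only. CNN3 had a log2 fold change of 0.09 (adjusted p = 0.558 in edgeR), and per length CNN2 was at 0.845 to 0.952 of CNN3 in vector and 0.684 to 0.805 in SETD8 libraries. DIAPH1, a formin that elongates actin filaments, had 350.4, 371 and 395 against 318, 301 and 339.6 CPM. Its groups were apart (-0.22, SE 0.09, adjusted p = 0.130 in edgeR), and it passed without vector replicate 1.

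**Figure D3:**
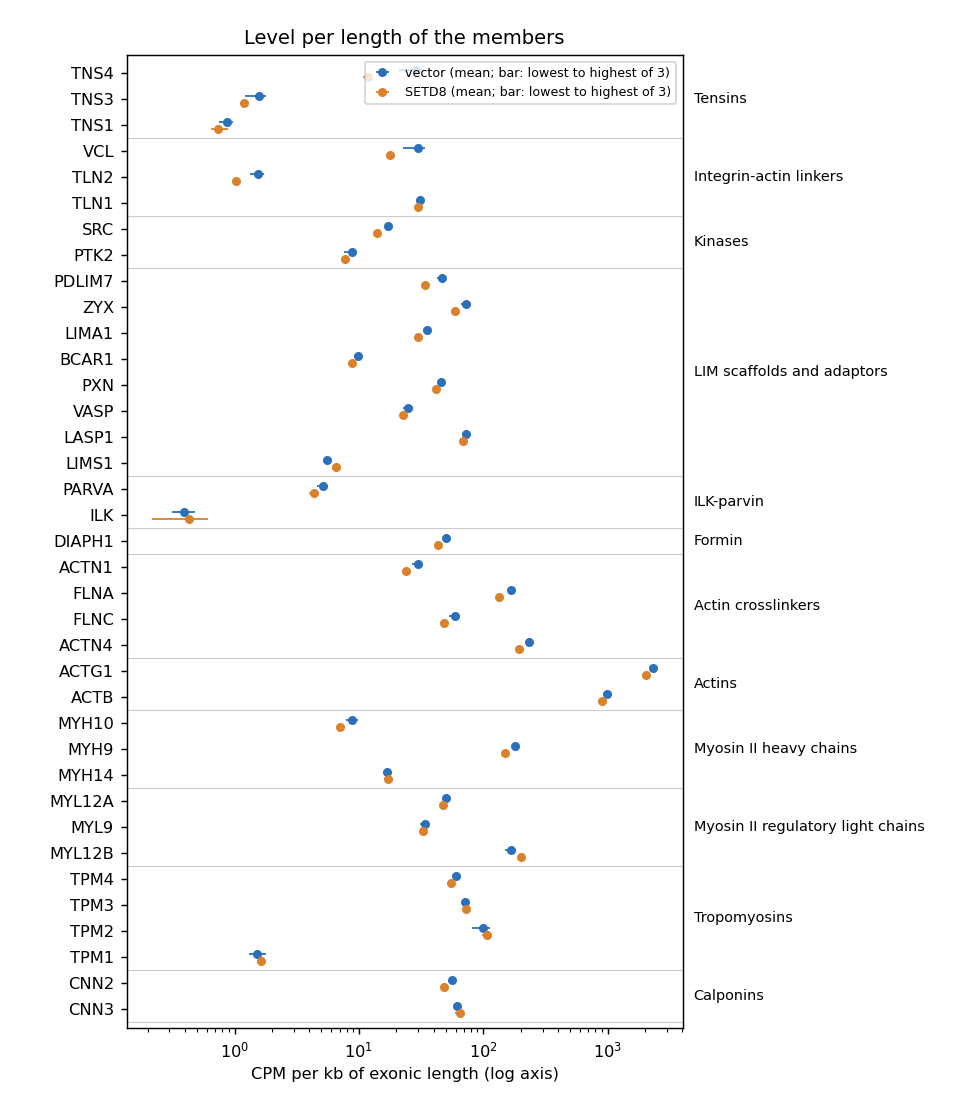
Level of each member per length (CPM per kb of exonic length, log axis), vector and SETD8, as the mean with the lowest and highest of 3 libraries. ACTG1 and ACTB lead, and within the tensins, talins and myosin heavy chains the paralogs differ widely in level.

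Levels per length covered a wide range. ACTG1 had 2303 and 2044 CPM per kb in vector and SETD8 libraries and ACTB 998 and 897, followed by ACTN4 (232 and 195), MYH9 (181 and 149.9), MYL12B (167 and 202) and FLNA (166 and 135). VCL (29.8 and 17.9) and TNS4 (28.7 and 11.8) lay in the middle, next to TLN1 (31.1 and 29.9). TLN2 (1.55 and 1.04), TNS3 (1.57 and 1.18) and TNS1 (0.875 and 0.737) were near the bottom. The exonic length counts the bases of all annotated transcripts, so genes with many long isoforms, such as TPM1, read low. Of 14 paralog ratios compared within libraries, 4 were lower and 2 higher in every SETD8 library: TNS4 to TNS3, TLN2 to TLN1, CNN2 to CNN3 and TPM4 to TPM2 were lower, and MYH14 to MYH9 and MYL12B to MYL12A higher. Several pairs share a gene and are not independent, and ratios of other gene pairs were not taken for comparison. The ratios were described and not tested.

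**Figure D4:**
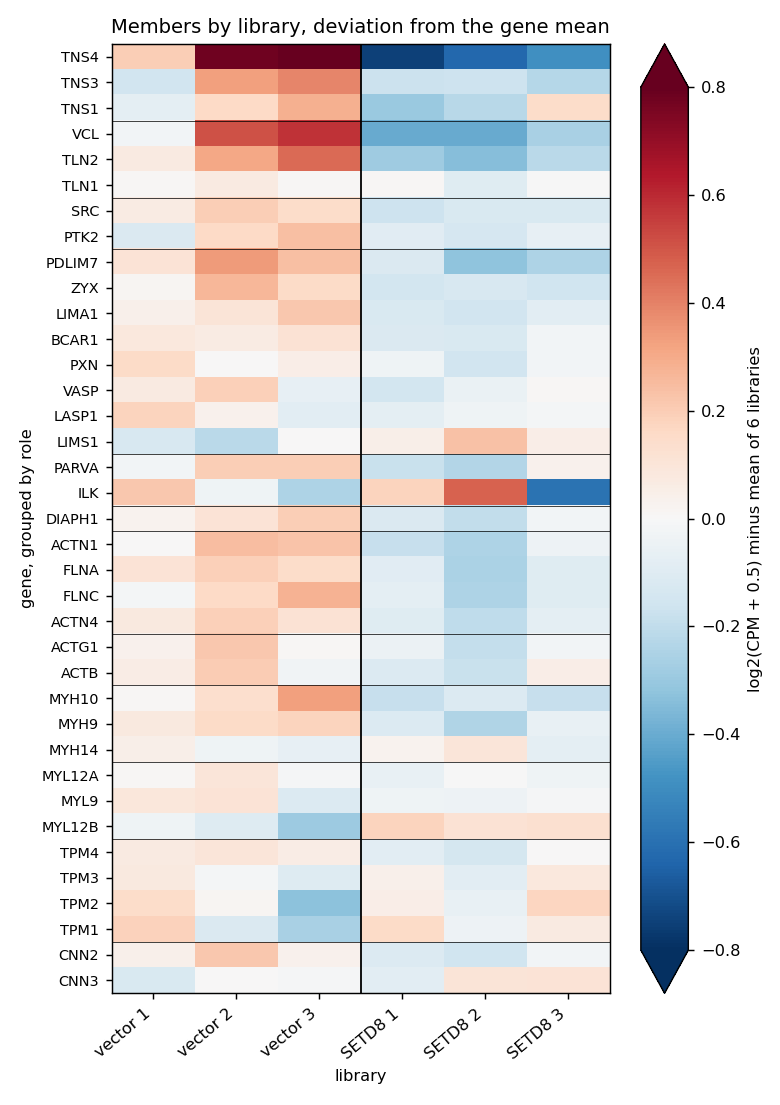
Deviation of each member from its mean over 6 libraries, as log2(CPM + 0.5), by library and grouped by role; colours saturate at 0.8. SETD8 libraries are mostly below the mean, and vector replicate 1 is nearer to them than vector replicates 2 and 3 in TNS4, TNS3, VCL and PTK2.

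The vector libraries differed among themselves in these genes. Vector replicate 1 was the lowest vector library in 19 of 37 members, beside 35.8% of all genes. The median log2 difference from the SETD8 mean was 0.14, 0.26 and 0.21 for vector replicates 1, 2 and 3 over the members, and 0.02, -0.01 and 0.00 over all genes. As a share of all counts the members took 2.06%, 2.27% and 2.16% in vector and 1.96%, 1.88% and 2.04% in SETD8 replicates 1, 2 and 3, with the actins as the largest part. The longest transcripts of members had a median of 4461 bases, beside 3431 over all genes. Across the 37 members, which share the same libraries and are not independent, the log2 fold change and this length had a Spearman correlation of -0.49, beside -0.33 across all genes. With length correction the median log2 fold change of the members was -0.14, against -0.20 as reported, and 30 of 37 were below 0. TNS4, VCL, PDLIM7 and TLN2 were all called with length correction, together with ACTN1, ZYX and CNN2.

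Other cytoplasmic adhesion genes were read for comparison. Of 31 tested, 6 fell and 1 rose, where 4.75% of all genes fell and 3.08% rose. The list's median log2 fold change was -0.10, and it was -0.06 with library totals and -0.04 with length correction. FERMT1, which encodes kindlin-1, a talin partner in integrin activation, fell from 156 ± 19.5 to 93.7 ± 9.76 CPM (-0.74, SE 0.11, adjusted p = 0.00492 in edgeR). DOCK1, an exchange factor for Rac, fell from 63.7 ± 7.89 to 45.0 ± 3.30 CPM (-0.50, adjusted p = 0.0184 in edgeR), and FHL1 (-0.48) and TNS2 (-0.64), a further tensin at 8.51 ± 0.116 and 5.44 ± 0.392 CPM, fell too. TES, a LIM protein gene outside the naming rule and chosen for its direction after the values were seen, rose by a log2 fold change of 0.30 (adjusted p = 0.0432 in edgeR). Its call was lost with the replicate block (adjusted p = 0.0666 in edgeR).

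ROCK2, a kinase that raises light chain phosphorylation, had 101, 118 and 149 CPM in vector and 87.9, 81.9 and 75.7 CPM in SETD8 libraries (-0.58, SE 0.13, adjusted p = 0.0184 in edgeR). CDC42BPB (-0.37) and CDC42BPA (-0.52), which encode the related MRCK kinases, fell, CDC42BPA not with library totals (adjusted p = 0.0604 in edgeR). Of 44 further actin genes 6 fell and 1 rose, where 4.75% of all genes fell and 3.08% rose. Their median was -0.01 and turned to 0.03 with library totals. DESeq2 called 7 of them lower and 5 higher, where it called 6.31% of all genes lower and 739 of 14370 higher. SVIL (-0.44), MYO1C (-0.35) and EZR (-0.48), which encodes the membrane linker ezrin at 2549 ± 359 and 1831 ± 90.6 CPM, fell. CFL2, an actin-severing cofilin picked likewise with its value known, rose by 0.54.

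SRF and its actin-regulated coactivators did not pass, with 0 of 3 called in edgeR, DESeq2 or limma-voom and 1 (SRF) at an unadjusted p under 0.05. Without vector replicate 1, 1 of the 3 was called lower, where 11.8% of all genes were lower. SRF had 109.7, 117 and 127 CPM in vector and 98.3, 102 and 104 CPM in SETD8 libraries, without overlap (-0.22, interval -0.46 to 0.02, adjusted p = 0.131 in edgeR). MRTFA (-0.17) and MRTFB (-0.25) had overlapping groups. Among 8 smooth muscle markers 4 were tested and 3 were lower, beside 4.75% of all genes. They were SMTN (from 92.6 ± 1.62 to 74.1 ± 2.31 CPM), DES (4.63 ± 1.98 to 1.68 ± 0.580 CPM) and CNN1 (1.23 ± 0.591 to 0.323 ± 0.134 CPM), named after their values were seen. CNN1 had 4 to 38 counts per library and DES 20 to 110. ACTA2, the other tested marker, had 4.67 ± 0.854 and 4.68 ± 0.731 CPM (0.01, adjusted p = 0.990 in edgeR). DESeq2 called 2 of the 3 lower markers and limma-voom 1, and 0 of the 3 passed without vector replicate 2 or any 1 SETD8 library. The marker sum was 99.3 to 108 CPM in vector and 79.4 to 83.3 CPM in SETD8 libraries, most of it SMTN, while ACTG2 and LMOD1 were near 0 and no marker was at 0 in every library. The part of these markers in the results was not tested.

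Of 13 called genes followed from these pathway lists, dropping vector replicate 2 ended 12 calls, and dropping SETD8 replicate 1, 2 or 3 ended 13, 12 and 12. The highest adjusted p values in edgeR were then 0.156, 0.191, 0.109 and 0.164. Dropping vector replicate 1 or 3 ended 0. FERMT1 was lost only without SETD8 replicate 1. Calls over all genes dropped in the same fits. Without vector replicate 2, 47 genes (0.320%) were lower and 25 higher, against 682 and 443 as reported. Without SETD8 replicate 1, 2 or 3, 10 (0.0679%), 110 (0.749%) and 84 (0.568%) were lower and 1, 45 and 45 higher. Without vector replicate 1 the lists held 11 lower and 2 higher adhesion genes and 10 lower and 8 higher actin genes. Of all 14715 genes in that fit, 1738 (11.8%) were lower and 1771 higher.

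**Figure D5:**
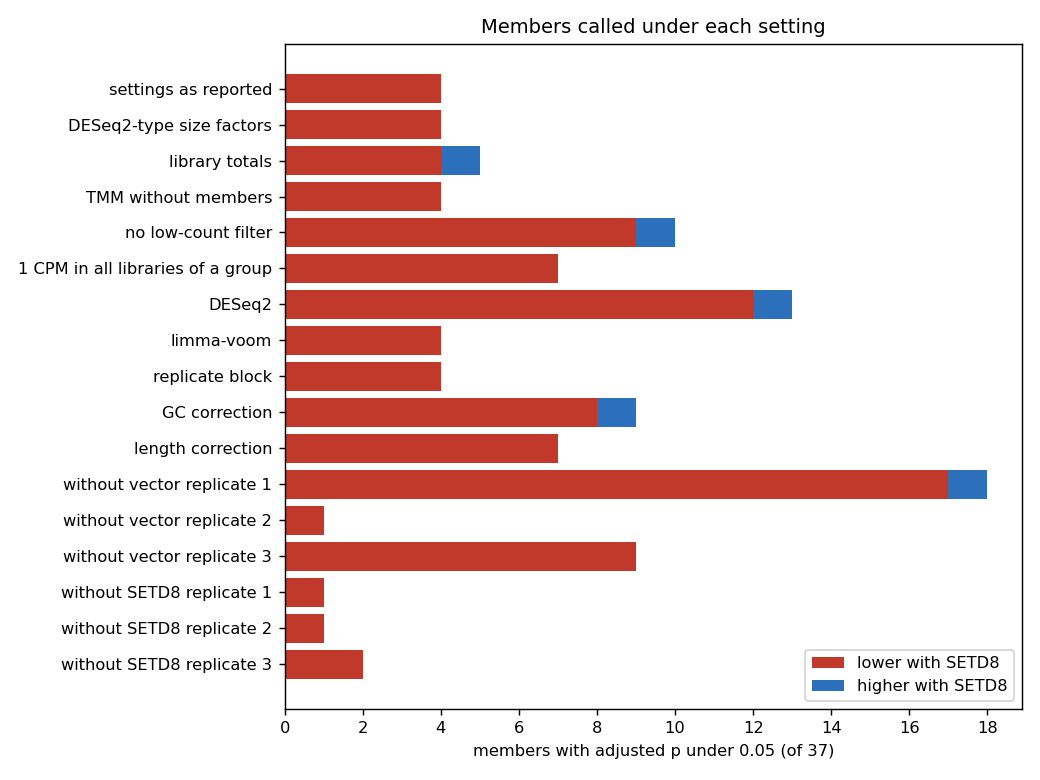
Number of the 37 members with adjusted p under 0.05 under each setting, lower (red) and higher (blue) with SETD8. The count is 4 as reported, 18 without vector replicate 1 and 1 or 2 without vector replicate 2 or any single SETD8 library.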

How the data were processed

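The authors deposited unnormalized read counts as whole numbers for 58735 Ensembl genes in 6 libraries. Libraries were made with a stranded kit, per the labels' protocols. HISAT2, STAR, featureCounts and HTSeq appear in the submitters' processing notes beside the build (GRCh38, hg38). Their roles, versions and strand setting were not stated, so values of overlapping and antisense genes are uncertain (exons of 20 members overlap another gene). Columns named NC were taken as vector, the only group besides SETD8. All IDs matched GENCODE 29, which gave positions and lengths.

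Genes passing filterByExpr (14370) were scaled by TMM and compared by the robust quasi-likelihood test of edgeR 4.0.16 in R 4.3.3. Tests were two-sided, and a gene was called at an adjusted p (Benjamini-Hochberg, all genes) under 0.05. The SE is the log2 fold change over the square root of F, and 95% intervals use 4 degrees of freedom. The test itself uses more, so an interval can include 0 at an unadjusted p under 0.05 in edgeR, as for SRF and TNS3. Chi-square per degree of freedom between libraries of a group was 6.14 to 33.8, so no pair matched within sampling noise. The fit was tested on simulated data, where it recovered 54.6% of 1.5-fold, 80% of 2-fold and 95.2% of 4-fold changes. Of its calls there 4.85% were false. Changes below 1.5-fold, the size of most member differences, were not simulated, so a gene that did not pass may still have changed. Alternatives were other scalings (one without the members), filters and tests (DESeq2 1.42.0, limma-voom with limma 3.58.1), a replicate block, GC and length correction, and leaving out each library.

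Members and lists were chosen with earlier results of these data known. Values per library were given for called members, the next up to 15, and ACTB, ACTG1, MYH9, MYL9, VCL, ZYX, TLN1 and PTK2; for other lists, up to 4 called genes. Some of these, and 1 list's counts, are not reported here. Further members, the motifs and the printed promoters (from RefSeq) were chosen after values were seen.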

Additional observations from a re-analysis of the deposited data

How the results depend on the processing

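TNS4 was called lower under all 16 alternatives and VCL, PDLIM7 and TLN2 under 13, 12 and 12, their losses coming from left-out libraries. The number of members called lower, 4 as reported, was 9 with no low-count filter, 7 with the filter of 1 CPM in all libraries of a group, 12 in DESeq2, 8 with GC correction and 7 with length correction, while 3.83%, 5.55%, 6.31%, 6.09% and 5.50% of all genes were lower in these fits, against 4.75%. It was 1 to 17 when single libraries were left out. Members called higher, 0 as reported, were 1 with library totals, no low-count filter, DESeq2 and GC correction, in each case MYL12B, and 0 to 1 with single libraries left out. Over all genes the calls were 2000 (1051 lower) with no low-count filter, against 1125 (682 lower), and 11 to 3509 (10 to 1738 lower) without single libraries. Library totals shifted the median of all genes by 0.04 on the log2 scale and gave 505 lower and 792 higher genes, against 682 and 443. TLN1 turned from -0.06 to 0.0905 with length correction. With the replicate block 4 members were lower, as without it. The values gave no sign that the replicate numbers pair the samples. Same-numbered libraries had correlations of their deviations of 0.02, 0.01 and -0.06, and not every library correlated best with its own number. The causes of these changes were not tested. ILK had at most 41 counts in a library, so its counting error is large.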
